A study of Mus musculus with 2 samples.

Results

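The clustered protocadherin locus was taken as 930 windows of 1 kb on mouse chromosome 18, from 37080000 to 38009999 in the genome build mm9. These are 930 of the 2641863 windows that cover the chromosomes in this series. The rule for the windows uses position alone; the locus itself was picked with earlier results of these data known. The series compared chromatin precipitated with a rabbit polyclonal antibody against Brg1 with input chromatin for which no antibody was used. Both came from primary embryonic fibroblasts of wild-type E13.5 embryos, on a background of C57BL/6 and 129. Each group was 1 library, so there was no replicate check. The tests below compare the tags of 2 libraries, not conditions, and their intervals reflect counting error alone. The libraries hold genomic DNA, so fibroblast markers could not be measured.

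Brg1 is the ATPase of the Swi/Snf complex, which moves and evicts nucleosomes. The clustered protocadherins are cadherin-like adhesion proteins of the cell surface, best known from neurons, in which each cell expresses its own combination of them. The genes lie in 3 neighbouring clusters, alpha, beta and gamma. In the alpha and gamma clusters each variable exon has its own promoter and is spliced to constant exons shared by the cluster, and the promoter choice involves CTCF and cohesin. The c-type genes stand at the end of the variable exons, next to the constant exons. In fibroblasts the family has no role as well known as in neurons.

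A RefSeq gene table, used for names and order only because its assembly, GRCm38.p6, is not mm9, lists 58 genes. The alpha cluster has 14 genes, from Pcdha1 to Pcdhac2, and follows Zmat2. The beta cluster has 22, from Pcdhb1 to Pcdhb22. The gamma cluster has 22, from Pcdhga1 to Pcdhgc5, of which 21 are protein-coding. Slc25a2 and Taf7 stand between beta and gamma, and Diaph1, which encodes a formin that assembles actin filaments, is the next protein-coding gene after gamma. Where single genes start on mm9 was not used here, so the values below are given by position and not by gene. No sequence is printed, since none was at hand for these genes.

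The ChIP library held 13215004 autosomal tags and the input 5608004, so 2.36 ChIP tags were expected for each input tag. All ratios below are ChIP over input after this scaling. The mean autosomal window of 1 kb had 5.47 ChIP tags and 2.32 input tags.

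Over its whole length the locus was close to the autosomal ratio, but it was thinly covered in both libraries and lower than the chromatin around it. It held 4285 ChIP tags and 1841 input tags, at a ratio of 0.988 (95% interval 0.935 to 1.04, two-sided exact binomial test, p = 0.667). ChIP tags stood at 0.842 times the autosomal density (0.817 to 0.868) and input tags at 0.853 times (0.814 to 0.892). The 1 Mb before the locus held 8046 ChIP and 2913 input tags, at a ratio of 1.17 (1.12 to 1.22). The 1 Mb after it held 8671 and 3126, a ratio of 1.18 (1.13 to 1.23). Both flanks were above the autosomes in ChIP density, at 1.47 and 1.58 times, and in input density, at 1.25 and 1.35 times.

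The ratio of the locus was 0.841 times that of the flanks together (0.790 to 0.895, Fisher's exact test, two-sided, adjusted p = 1.68e-07 over 3 comparisons). It was 0.843 times that of the left flank (0.786 to 0.904, Fisher's exact test, adjusted p = 1.40e-06). Against the right flank it was 0.839 times (0.783 to 0.899, Fisher's exact test, adjusted p = 7.95e-07). The flanks differed from each other by less than the counting error, with a left-over-right value of 0.996 (0.938 to 1.06, Fisher's exact test, p = 0.892). Tag counts vary more along chromosomes than counting error allows, so these p-values need their background. When each autosomal tile of the same width was compared with its own 1 Mb flanks, 36.0% of 2533 tiles were lower and 29.7% higher at an unadjusted p under 0.05. The value was at or below that of the locus in 344 of these tiles, and the 5th and 95th percentiles were 0.774 and 1.25. A ratio below that of the flanks was thus common at this width.

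Among 2552 autosomal tiles as wide as the locus, 1350 had a lower ratio, 899 a lower ChIP density and 698 a lower input density. Of these tiles 33.3% were higher and 44.5% lower than the autosomal ratio at an unadjusted p under 0.05. The ratio moved with the input density across the genome. With the tiles sorted by input density into 4 equal groups, its median was 0.805 in the lowest group, which reached up to 0.834 times the mean, and 0.936, 1.04 and 1.10 in the next ones. The locus, at an input density of 0.853, stood just inside the second of these groups, in which the middle tiles had ratios of 0.875 to 1.01 (25th to 75th percentile). The part of input density in the ratio of the locus was not tested.

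**Figure D1:**
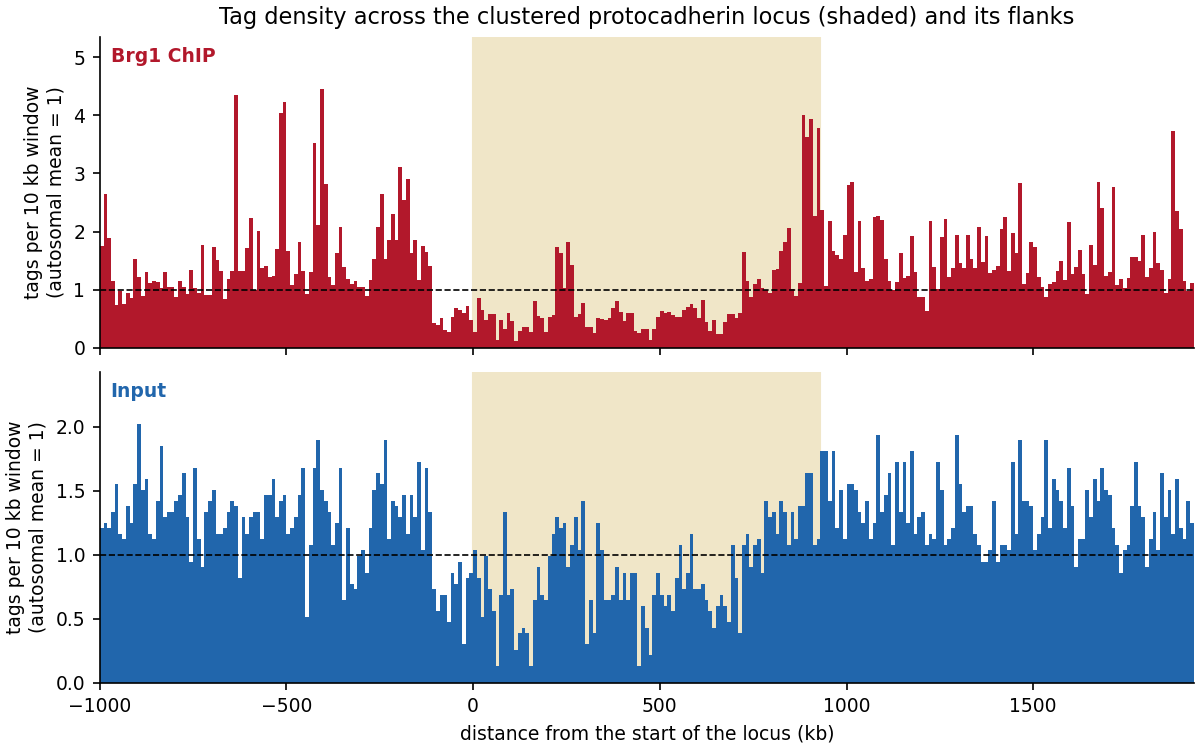
Tags per 10 kb window of the Brg1 ChIP (upper) and the input (lower), each divided by its autosomal mean (dashed line at 1), against the distance from the start of the locus in kb. The locus is shaded. Both libraries are low over most of it, ChIP tags stand in a block at 220 to 270 kb, and they reach their highest level in the last 50 kb.

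The near-average ratio of the whole locus was the sum of unlike stretches, and most of its length was poor in Brg1 tags. In 10 segments of 93 kb, 8 had a ratio below 1 and 2 above. Going from its start, the first segment held 244 ChIP and 159 input tags, at a ratio of 0.651 (0.531 to 0.800). The second held 217 and 114, a ratio of 0.808 (0.641 to 1.02), the lowest ChIP density of the 10 at 0.426 times the autosomes. The third held 536 and 234, at a ratio of 0.972 (0.832 to 1.14), and contains the block of tags described below.

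The lowest ratio was that of the fourth segment, with 250 ChIP and 173 input tags, at 0.613 (0.503 to 0.749). The fifth held 255 and 151, a ratio of 0.717 (0.584 to 0.882), and the sixth 240 and 141, a ratio of 0.722 (0.584 to 0.896). From there each next segment was higher, with 0.794 (0.654 to 0.966) in the seventh, from 305 and 163 tags, and 0.874 (0.725 to 1.06) in the eighth, from 348 and 169. The intervals of these neighbouring segments overlap. The ninth held 616 ChIP and 254 input tags, at a ratio of 1.03 (0.888 to 1.20). The tenth held 1274 against 283, a ratio of 1.91 (1.68 to 2.18), and was the only one whose interval lay above 1.

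Set against the other 9 segments, 6 differed (Fisher's exact test, two-sided, adjusted over the 10). The tenth was 2.33 times the rest (2.02 to 2.70, Fisher's exact test, adjusted p = 2.82e-33). The fourth was 0.597 times the rest (0.486 to 0.736, Fisher's exact test, adjusted p = 4.52e-06) and the first 0.639 times (0.517 to 0.792, Fisher's exact test, adjusted p = 0.000102). Segments 5, 6 and 7 were also lower, with adjusted p from 0.00349 to 0.0349 in Fisher's exact test. Because the tenth segment is part of the rest for the others, their values are set against a sum that it raises. How often segments of other loci differ from their surroundings in this way was not tested. Against the autosomal ratio, 5 of the 10 segments had an interval below 1 and 1 an interval above it. Of 25332 autosomal tiles of 93 kb, 34.4% were lower and 19.6% higher than that ratio at an unadjusted p under 0.05, so the number of segments that departed from it was near the background.

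Among those tiles the tenth segment had a higher ratio than 99.7% and a higher ChIP density, at 2.50 times the autosomes, than 99.4%. The fourth had a higher ratio than 1.69% of tiles and the first than 4.22%. The other 7 segments ranked between 12.1% and 66.0% in ratio, all between the 5th and the 95th percentile of the genome. In ChIP density the second segment, the lowest of the 10, was above 2.98% of tiles. The ratios of the 10 flank segments on the left ran from 0.732 to 1.53 and those on the right from 0.884 to 1.33. The thinly covered stretch did not start at the boundary of the locus: the left-flank segment next to it held 269 ChIP and 156 input tags, at 0.529 times the autosomal ChIP density and a ratio of 0.732 (0.599 to 0.897). On the other side the first right-flank segment had a ratio of 1.29 (1.14 to 1.47).

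**Figure D2:**
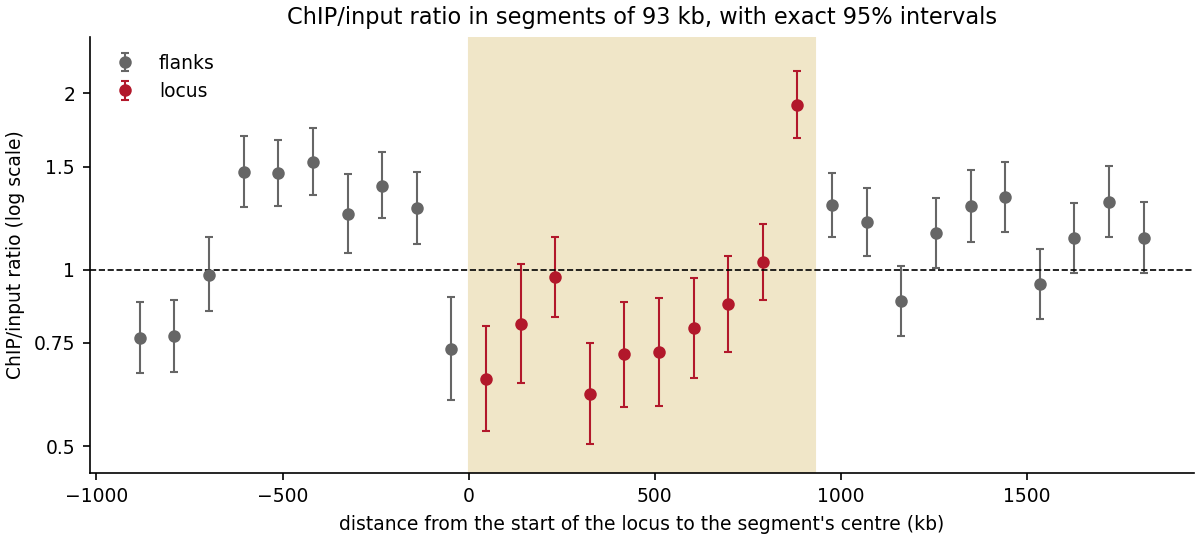
ChIP/input ratio (log axis) of 30 segments of 93 kb against the distance of their centre from the start of the locus in kb; red points are the locus, grey points the flanks, bars exact 95% intervals, and the dashed line the autosomal ratio of 1. The locus runs from 0.651 in its first segment to 1.91 in its last, and the flank segment just before it is low as well.

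**Figure D3:**
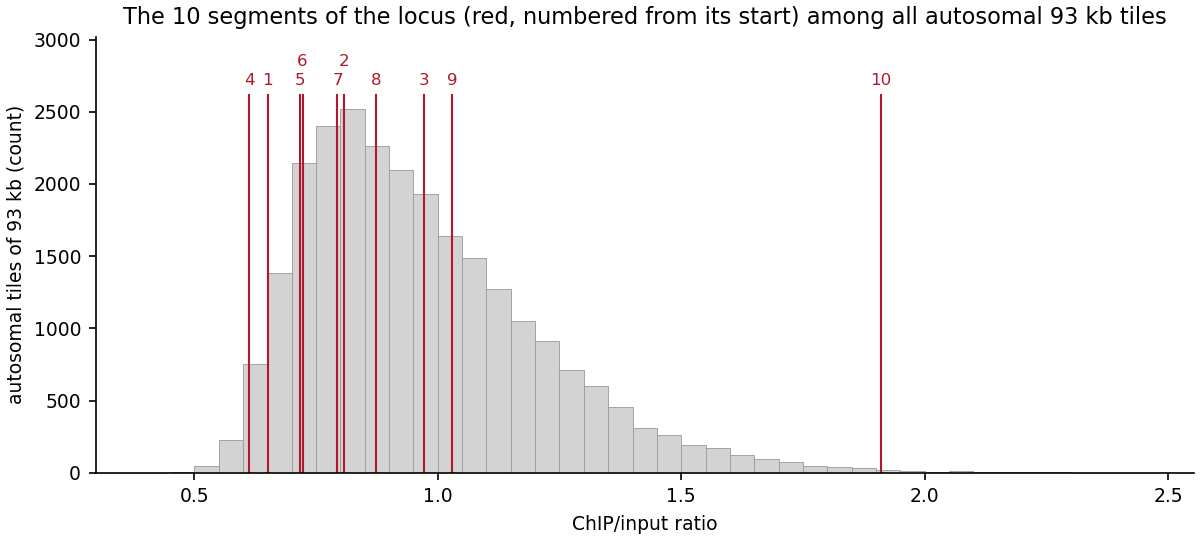
Histogram of the ChIP/input ratio in 25332 autosomal tiles of 93 kb (grey), with the 10 segments of the locus as red lines numbered from its start. Segments 1 and 4 lie toward the lower end of the tiles, at 0.651 and 0.613, and segment 10 lies in the upper tail at 1.91.

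To describe the internal pattern without fixed segments, the 93 windows of 10 kb were divided into the 5 blocks that best fit even ChIP densities. The boundaries were set by the ChIP tags themselves, so the values of the blocks are a description with no test. The first block spanned 220 kb from the start, the side of the alpha cluster. It held 551 ChIP and 345 input tags, at a ratio of 0.678 (0.591 to 0.778), with 6 to 47 ChIP tags and 3 to 31 input tags in its windows of 10 kb. None of its 220 windows of 1 kb reached 10 ChIP tags, and 40 had no ChIP tag.

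The second block was a narrow rise of 50 kb, at 37300000 to 37349999. It held 418 ChIP and 133 input tags, at a ratio of 1.33 (1.09 to 1.63). Its 5 windows of 10 kb had 95, 89, 56, 100 and 78 ChIP tags and 30, 28, 29, 21 and 25 input tags, where the window before it had 31 and 27 and the window after it 29 and 30. The ChIP tags of all 5 windows were above both neighbours, while the input stayed between 21 and 30. Within it 15 of 50 windows of 1 kb had at least 10 ChIP tags, and the highest, at 223 and 258 kb from the start, had 24 each, with 1 and 4 input tags.

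The third block was the longest, 450 kb from 37350000 to 37799999 and 48.4% of the locus. It held 1249 ChIP and 761 input tags, at a ratio of 0.696 (0.636 to 0.763). Its ChIP density was 0.507 times that of the autosomes, close to the 0.458 times of the first block, and its input density 0.728 times, against 0.675 times. Only 2 of its 450 windows of 1 kb had 10 or more ChIP tags, and 37 of its 45 windows of 10 kb had a ratio below 1.

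In the fourth block, 160 kb from 37800000 to 37959999, both libraries were above the autosomal density, at 1.26 times for the ChIP and 1.19 times for the input. It held 1104 ChIP and 443 input tags, at a ratio of 1.06 (0.946 to 1.18). Both densities were thus higher in this block than in the third. At the border the windows of 10 kb from 37770000 to 37800000 held 32, 28, 33 and 90 ChIP tags. Their input tags were 25, 19, 9 and 25, and only the last window of the row is inside the block. The ChIP thus stepped up near 37800000, while the input dipped and came back to its count at 37770000. The rise began before this bound: the windows of 1 kb from 37797000 to 37799999 had 9 ChIP tags each. No window of 10 kb in the fourth block had under 48 ChIP tags, and none in the third block had over 45.

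The fifth block was the last 50 kb of the locus, 37960000 to 38009999, on the side of the gamma cluster and of Diaph1. It held 963 ChIP tags against 159 input tags, at a ratio of 2.57 (2.17 to 3.06). On 5.38% of the length it carried 22.5% of the ChIP tags of the locus and 8.64% of its input tags. ChIP density was 3.52 times that of the autosomes and input density 1.37 times, so the ChIP rose far more than the input did. Of its 50 windows of 1 kb 44 had at least 10 ChIP tags, against 55 of the other 880, and the lowest had 6.

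Without these 50 kb the locus had a ratio of 0.838 (0.790 to 0.889) and stood at 0.713 times its flanks (0.668 to 0.762). The block was bounded by its own ChIP tags, and its ratio was above that of the locus. Leaving it out therefore had to lower both values, while the flanks kept their dense windows. The values describe the rest of the locus and are no test. The ratio of the whole locus therefore rests on this block, which moves it from 0.838 to 0.988. The scale also decides on which side of 1 some stretches lie. With a scale taken from windows with few tags, all ratios were 1.29 times as high, 4 and not 8 of the 10 segments were below 1, and blocks 1 and 3 stood at 0.874 and 0.898. The comparisons with the flanks and within the locus do not depend on the scale.

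All 93 windows of 10 kb had the 10 tags needed for a test. Of these, 7 (7.53%) had ChIP tags in excess of the scaled input, where 3.98% of 249877 windows did in the genome, and 5 (5.38%) held fewer, where 1.11% of the genome did (two-sided exact binomial test, adjusted over the genome at 0.05, and a ratio of at least 1.5 or at most its inverse). In each flank, 9 of 100 windows were called higher and 1 of 100 lower, so the share of higher windows was not larger in the locus than around it. At an unadjusted p under 0.05 the shares in the locus were 7.53% higher against 8.27% in the genome, and 16.1% lower against 8.62%. The median ratio of the windows was 0.809 in the locus, 1.00 in the left flank, 1.12 in the right flank and 0.900 on the autosomes. A ratio below 1 was found in 63 of the 93 windows, or 67.7%, against 61.0% of autosomal windows.

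The higher windows were strongly grouped. All 5 windows of the last block were called, and this run of 5 was 1 of 44 runs of at least 5 windows among 7969 in the genome. The window with the highest lower bound was the last of the locus, at 38000000 to 38009999, with 207 ChIP and 26 input tags (ratio 3.38, interval 2.24 to 5.29, exact binomial test, adjusted p = 1.09e-08). At 37960000 to 37969999 the counts were 219 and 32 (ratio 2.90, 2.00 to 4.35, exact binomial test, adjusted p = 1.09e-07), and at 37980000 to 37989999 they were 215 and 38 (ratio 2.40, 1.69 to 3.49, exact binomial test, adjusted p = 1.16e-05).

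On the left side of this run the ratio changed within 10 kb, while on the right, at the bound of the locus, its end was less clear. The window before it, at 37950000, had 61 ChIP and 32 input tags, at a ratio of 0.809 (0.519 to 1.28). The window after it, outside the locus at 38010000, had 130 and 42, a ratio of 1.31 (0.921 to 1.91), and was not called. Its ChIP count was not below that of the called window at 37990000, which had 124 ChIP and 25 input tags. That called window had a ratio of 2.10 (1.36 to 3.38), an interval that overlaps the one outside the locus. The remaining higher windows were single and near the threshold: 100 against 21 tags at 37330000, in the second block (ratio 2.02, exact binomial test, adjusted p = 0.0494), and 113 against 25 at 37920000 (ratio 1.92, exact binomial test, adjusted p = 0.0488). Their calls were lost under 3 and 5 of the 10 alternatives that keep the windows in place, while all 5 windows of the last block kept theirs under each. With windows moved by 5 kb, 4 windows were called higher, where moved windows that crossed an end of the locus were not counted.

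The 5 lower windows stood singly in blocks 1 and 3. The lowest was at 37160000 to 37169999, with 18 ChIP and 31 input tags (ratio 0.246, 0.130 to 0.454, exact binomial test, adjusted p = 0.000230). The window at the very start of the locus, 37080000 to 37089999, had 15 and 24 (ratio 0.265, 0.129 to 0.527, exact binomial test, adjusted p = 0.00376). At 37510000 to 37519999 there were 16 and 20 (ratio 0.339, 0.165 to 0.690, exact binomial test, adjusted p = 0.0459). The other 2, at 37350000 and 37410000, held 29 against 30 and 28 against 29. In all 5 the ChIP had fewer tags than the input before scaling, although its library was the deeper one. The calls at 37160000 and 37080000 held under all 10 alternatives that keep the windows in place. The scale from windows with few tags ended the calls at 37350000 and 37510000 (exact binomial test, adjusted p = 0.137 for each) and at 37410000 (adjusted p = 0.148, exact binomial test). With 1 tag kept per strand within 5 bp, 37510000 lost its call as well (adjusted p = 0.0637, exact binomial test).

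At 1 kb the depth limited what could be called. Only 179 of the 930 windows (19.2%) had 10 tags in the sum of both libraries, against 29.0% of autosomal windows, 48.7% in the left and 58.8% in the right flank. Of these 179, 0 were called higher, where 0.380% were in the genome, and 0 were called lower, where 0.00666% were. At an unadjusted p under 0.05, 22 (12.3%, against 5.98%) were higher and 2 (1.12%, against 1.70%) lower. With at least 20 tags required, which leaves fewer tests, 13 were called higher. With the scale from windows with few tags 10 were. The shares called in the genome under these 2 settings were not computed, so these counts have no background here. The 10-tag minimum is more often reached where ChIP tags are many, so these shares are not shares of the whole locus: 122 of the 179 windows lay in blocks 4 and 5 and 28 in blocks 1 and 3.

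The 5 windows of 1 kb with the highest lower bound include 4 from the last block. That at 37964000 to 37964999 held 23 ChIP tags and no input tag. It has no ratio, and its exact 95% interval began at 2.44 (exact binomial test, adjusted p = 0.0828). That at 37967000 held 33 against 2 (ratio 7.00, 1.79 to 60.2), that at 38009000 held 39 against 3 (5.52, 1.75 to 27.9) and that at 37979000 held 25 against 1 (10.6, 1.74 to 436). Their adjusted p ranged from 0.0828 to 0.177 in the exact binomial test, so none passed. These ratios rest on 0 to 3 input tags. With the input of a window not allowed under its mean over 10 kb, the window at 37979000 went from 10.6 to 2.12 (0.798 to 7.10) and that at 37967000 from 7.00 to 4.67 (1.46 to 23.8). That at 37964000 stood at 3.25 (0.983 to 16.9), and that at 38009000 stayed at 5.52. With tags not moved along their strand, 37979000 had a ratio of 5.94.

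These windows were not isolated peaks. The window at 37964000 stood in a row with 12, 19, 23, 26 and 39 ChIP tags, and its 23 tags, at 23 distinct positions, were spread over 871 bp with 13 of them on the plus strand. Around 38009000 the row was 30, 29, 39, 18 and 25, the last 2 values being outside the locus. The most ChIP tags in any window of 1 kb of the locus were 40, at 905 kb from the start, with 5 input tags. The highest windows of 1 kb in the left and right flanks held 57 and 42. The remaining window of the 5, at 37911000 in the fourth block, held 20 against 0, with an interval from 2.10, and its neighbours held 12 and 10. With the input held at its mean over 10 kb or above, it stood at 2.83 (0.839 to 14.9). The input of the 50 windows of the last block had a median of 3 tags and a highest value of 8.

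**Figure D4:**
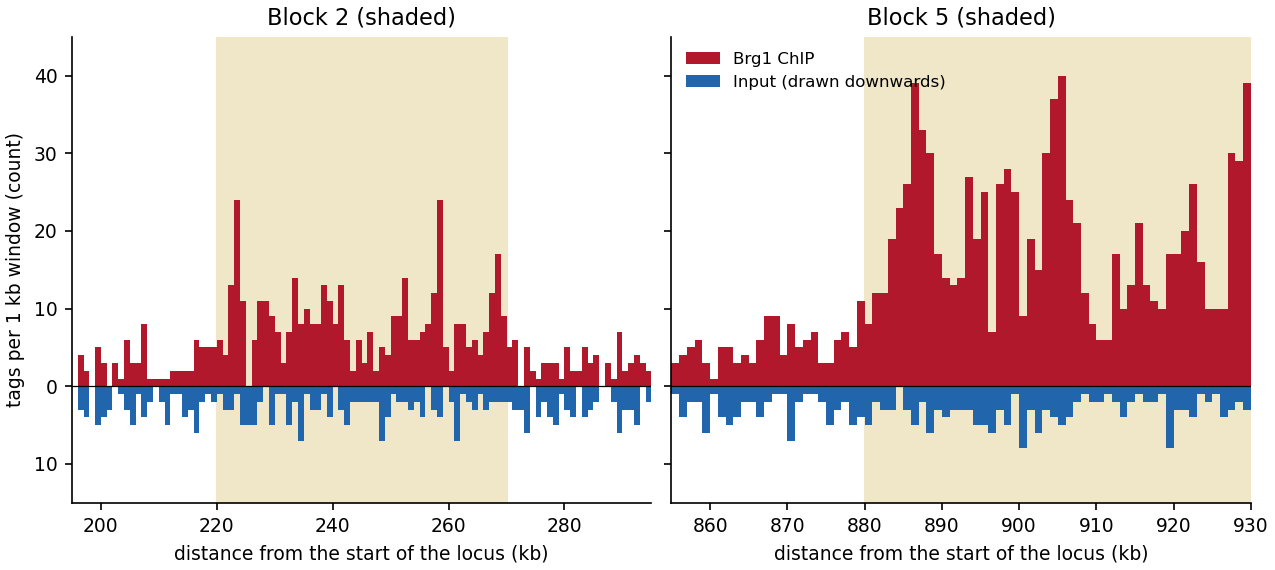
Tags per 1 kb window of the Brg1 ChIP (red, upwards) and the input (blue, downwards) around the second block (left) and the last block (right), against the distance from the start of the locus in kb; the blocks are shaded. ChIP tags reach 24 in the second block and 40 in the last, where they stay at 6 or above, and input tags do not exceed 8.

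At the other end, the 3 windows of 1 kb with the lowest upper bound held 3 ChIP against 8 input tags at 37166000 and at 37836000 (ratio 0.159, 0.0272 to 0.663, exact binomial test, adjusted p = 0.306 for each) and 5 against 7 at 37328000 (0.303, 0.0759 to 1.11). The window at 37836000 lies in the fourth block, between neighbours with 9 and 10 ChIP tags. That at 37328000 lies in the second block, between 2 and 4. None of the 3 passed the test after adjustment.

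Windows without any tag were frequent. In the locus 108 windows (11.6%) had no ChIP tag, against 7.58% on the autosomes, 1.60% in the left flank and 0.200% in the right. No input tag fell in 67 of the 220 windows of the first block, in 104 of the 450 of the third and in 1 of the 50 of the last. Both libraries were empty in 59 windows, 58 of them in blocks 1 and 3, and the longest empty run was 6 kb, from 37525000 to 37530999. Protocadherin genes of a cluster resemble each other in sequence, and the treatment of tags with several matching positions was not given in the sources used here. Its part in the empty windows was not tested.

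ChIP tags were uneven at 1 kb, with a variance 5.93 times the mean in the locus, against 5.67 in the left flank, 3.55 in the right flank and 4.31 on the autosomes. The input was much more even, at 1.35 times the mean in the locus and 1.39 times on the autosomes. Over the 93 windows of 10 kb, ChIP and input tags were correlated (Spearman's rho 0.694, Pearson's r 0.623), a description over windows that share both libraries. Between the ratio and the input, rho was 0.0317 there. The input is the denominator of the ratio, so counting error in it lowers this value. It therefore cannot show whether the ratio moved with the input in the locus. Repeated tags were few: 32 of 4252 ChIP positions in the locus had 2 tags, and no input position had. Of the ChIP tags 48.6% were on the plus strand.

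Nucleosome spacing was also looked for in the locus. Pairs of tags on the same strand at 150 to 200 bp, where a neighbouring nucleosome would place them, were compared per bp with pairs at 900 to 1000 bp. Any grouping of tags within less than 1 kb also raises this value, and no other near distance was compared. The value therefore cannot tell spacing from uneven tag density. In the ChIP the locus held 1101 near and 1983 far pairs, a ratio of 1.10 (exact 95% interval 1.02 to 1.18, taking pairs as independent, which they are not). The autosomes stood at 1.09, the left flank at 1.13 and the right flank at 1.18. In the input, with 102 and 188 pairs, the value of 1.07 (0.836 to 1.37) could not be told from 1 or from the autosomal 1.03 at this depth. The last block alone had 1.13 (1.02 to 1.25) in the ChIP, an interval that overlaps that of the whole locus, which includes it.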

How the data were processed

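The deposited files list, for each library, chromosome, strand, position and the count of tags there. The submitters' processing notes name Bowtie and mm9, with no settings. Whether repeated tags were removed, and whether positions count from 0 or 1, was not given in the sources used here; positions may be off by 1 bp. Here each tag was moved 75 bp along its strand and counted in windows of 1 kb and 10 kb, and the ChIP was scaled to the input by autosomal totals. Windows with at least 10 tags in both libraries together were tested over the whole genome with a two-sided exact binomial test (smaller tail doubled) and Benjamini-Hochberg adjustment. Intervals are exact (Clopper-Pearson, or conditional for Fisher's exact test) at 95%. With 0 input tags no ratio is given, only the interval's lower end.

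Density relative to autosomes counts windows from the first to the last tag of each chromosome. Tiles lie on the grid of the locus, with at least 50 input tags at 93 kb and 500 at the width of the locus. Named are the 5 windows of 1 kb and 3 of 10 kb with the highest lower bound, the 3 of each with the lowest upper bound, and all segments; other windows were named after their values were seen. Blocks minimise a Poisson cost. The locus and the tests were chosen with earlier results of these data known. The steps were tested on simulated data. Python 3.11.15, numpy 2.4.6, scipy 1.17.1, pandas 2.3.3 and matplotlib 3.10.9 were used.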

Additional observations from a re-analysis of the deposited data

How the results depend on the processing

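The comparisons of the locus with its flanks kept their direction and their call under all 9 alternatives each. The alternative without the last block could only lower these values, so its outcome is no check. Values ran from 0.704 to 0.852 for both flanks, 0.715 to 0.860 for the left and 0.678 to 0.851 for the right. The low ends 0.704 and 0.678 came with 50 kb trimmed from each end, where the trimmed ends were counted in the flanks. The ratio of the whole locus, 0.988 and not called, became 1.27 (1.21 to 1.35) with the scale from 10 kb windows with few tags, which is 0.776 of the main scale and by construction raises every ratio. It was 0.847 and called lower with 50 kb trimmed from each end, and 0.838 and called lower without the last block, an alternative chosen after seeing the data, as was another two-sided p; both remove the end where ChIP tags are densest. The scale from windows with few tags also gave 10 higher windows of 1 kb, against 0, and 2 lower windows of 10 kb, against 5. A minimum of 20 tags gave 13 higher windows of 1 kb, against 0. It leaves fewer windows in the adjustment, and the cause of the higher count was not tested. For neither setting was the share called in the genome computed. Windows of 10 kb moved by 1/2 of their width gave 4 higher ones, against 7. Moved windows that crossed an end of the locus were not counted, and the cause of the lower count was not tested. The count of segments that differ, 6, ran from 5 to 9 under its 5 alternatives, the highest with 30 segments. Of 84 values for the named windows of 1 kb 10 gained a call and 74 stayed the same. Of 60 for those of 10 kb 2 lost it and 58 stayed the same, and 0 of either reversed; the ratio of the window at 37979000 fell from 10.6 to 2.12 with the input held at its mean over 10 kb. No paired analysis was possible because there was 1 library per group. The locus had 1.98 input tags per 1 kb window, and depth limits the calls at that width.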
